A study of Mus musculus with 33 samples.

Results

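The comparison sets preNeu, a dividing neutrophil precursor, against the transitional pre-monocyte (TpMo), a dividing precursor on the monocyte path. Its members were taken by their cell type label and are 6 of the 33 libraries of the series, 3 of preNeu and 3 of TpMo, all from control animals. The series profiled populations sorted from mouse bone marrow by bulk RNA sequencing, in 7 control groups and in 4 groups taken 3 days after mid-grade cecal ligation and puncture, a model of sepsis, with 3 biological replicates in each group. The sepsis libraries enter here only through the shared estimate of the spread. The controls are described as wild type and received no treatment named in the labels, and strain and age are not given in the sources used here. The preNeu cells were sorted by a gate published earlier, and the gate for TpMo is not given in the sources used here. Surface c-Kit and CXCR4 are commonly used to gate preNeu, and CXCR4 also TpMo, so the levels of Kit and Cxcr4 may carry the sort itself. The same may hold for other genes of surface proteins, such as Csf1r, Ly6c2, Ly6g, Itgam and Cxcr2, whose part in the gates is not known here.

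Neutrophils and monocytes arise from shared granulocyte-monocyte progenitors. On the neutrophil path, proNeu stages make azurophil granule proteins such as myeloperoxidase, and preNeu, which still divide, go on to make specific granule proteins such as lactoferrin before the cells leave the cycle. On the monocyte path the common monocyte progenitor (cMoP) gives rise to TpMo, which still divide, and these to Ly6C-high monocytes. C/EBP-epsilon and GFI1 are required for the granule stage of the neutrophil path, whereas IRF8 and KLF4 are required on the monocyte path.

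Sex and cell type cannot be told apart in this comparison. Levels are given as CPM, counts scaled to an equal library size, taken as the total count times its TMM scaling factor. Xist, the RNA of the inactive X chromosome, was at 385.3 to 458.8 CPM in preNeu and 0.379 to 0.71 CPM in TpMo. The Y-linked Ddx3y was at 0.1097 to 0.7827 CPM in preNeu and 76.32 to 94.65 CPM in TpMo. Genes on X and Y were therefore left out of every count below. Autosomal genes that respond to sex were not identified.

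The libraries held 21450068, 22677438 and 5517734 counts in preNeu and 17237611, 21505178 and 21665294 counts in TpMo. Replicates correlated at 0.927 to 0.953 within preNeu and 0.958 to 0.96 within TpMo (Pearson's r of log2 CPM across genes, which are not independent), and at 0.849 to 0.87 between the groups. The shallow preNeu replicate 3 stood apart from the other two and nearer to proNeu2, the stage before preNeu. Its summed CPM over the azurophil granule list was 25164, against 13167 and 14975 in replicates 1 and 2, and its summed CPM over the specific granule list was 98179, against 147865 and 143407. Many of the values that this library moves are given with and without it. Mitochondrial genes took 0.711% to 0.937% of the counts in preNeu and 1.58% to 1.9% in TpMo, and the 20 most abundant genes took 16.9% to 20.2% and 11.8% to 12.4%.

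**Figure D1:**
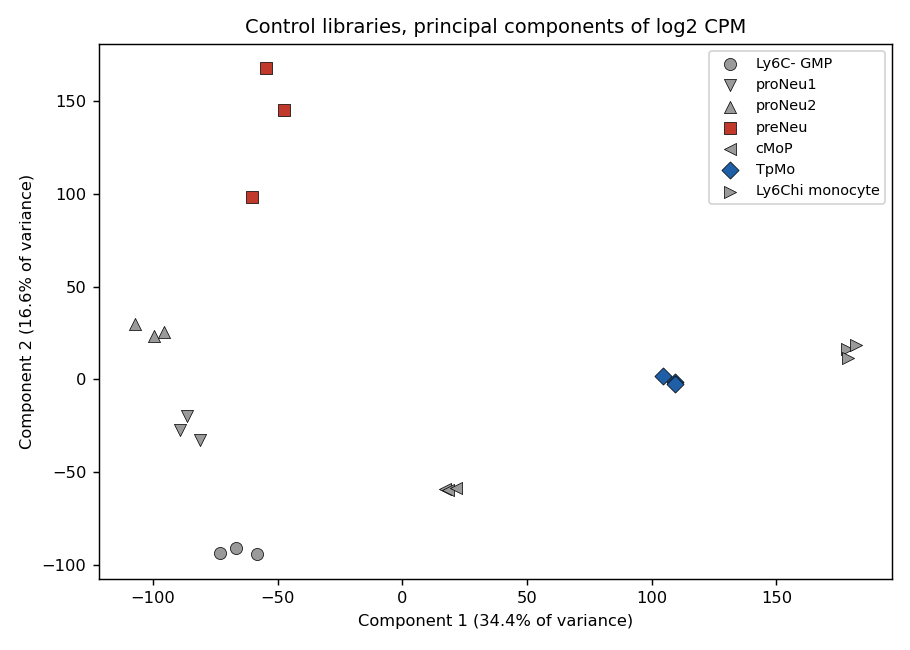
Positions of the 21 control libraries on the first and second principal components of log2 CPM (each axis in component units, 34.4% and 16.6% of the variance), 1 point per library. The preNeu libraries lie at the top of the second component, and the TpMo libraries lie together between cMoP and Ly6C-high monocytes on the first, with preNeu replicate 3 lowest of the preNeu points.

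A gene was called different when its adjusted p was under 0.05 in edgeR's quasi-likelihood test, adjusted over all genes tested. Of 17604 genes tested off X and Y, 4966 (28.2%) were called, 2316 (13.2%) higher in preNeu and 2650 (15.1%) higher in TpMo. At least a 2-fold difference was seen for 1534 and 1808 of these. The libraries of the groups did not overlap for 38.6% of genes. Counts of list members below are to be read beside these shares of all genes. The median log2 difference over all genes tested, preNeu minus TpMo, was -0.05. Without scaling factors the split was 1802 higher and 3577 lower, so that 33.5% of calls were higher in preNeu in place of 46.6%, with a median of -0.26. Changes below are relative to the TMM scaling, and log2 values are preNeu minus TpMo ± SE with 3 libraries per group. The SE was taken as the absolute log2 value divided by the square root of the test's F statistic. It therefore restates the test and uses the spread shared over all 33 libraries.

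Specific granule genes made up the highest preNeu signal. Of 17 members tested, 16 were called higher in preNeu and 1 lower, with a median log2 difference of 6.48 beside -0.05 over all genes. Ltf, the lactoferrin gene (chromosome 9, 111019271 to 111042767, on GRCm38, as are all gene positions here), was at 44842, 44357 and 28752 CPM in preNeu and 11.95, 14.07 and 20.58 CPM in TpMo (log2 11.3 ± 0.64, adjusted p = 5.04e-14). Ngp (chromosome 9, 110419747 to 110423012), which encodes neutrophilic granule protein, was at 53794, 37117 and 29597 CPM against 11.48, 7.343 and 25.85 CPM (11.39 ± 0.73, and 12.1 without TpMo replicate 3). Camp, the cathelicidin gene, was at 5141, 6844 and 4585 CPM against 2.012, 1.232 and 3.083 CPM (11.35 ± 0.59, adjusted p = 8.03e-15). In each of these genes every preNeu library was far above every TpMo library, and the spread among preNeu libraries was small beside the gap. In bulk samples, fewer cells of a type and less RNA per cell cannot be told apart, which holds for every level given here.

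Other members of the list differed less evenly. Lcn2, which encodes the siderophore-binding lipocalin 2, was at 1239, 3543 and 2702 CPM in preNeu and 27.22, 26.34 and 30.36 CPM in TpMo (6.48 ± 0.37). Chil3, a chitinase-like protein gene that monocytes also express, was at 19888, 34141 and 19424 CPM against 4869, 5791 and 4343 CPM (log2 2.29, adjusted p = 3.38e-05). Mmp8, the gene of neutrophil collagenase, went the other way, at 40.5, 26.32 and 23.09 CPM in preNeu and 307.8, 307.9 and 244.5 CPM in TpMo (-3.24 ± 0.66, adjusted p = 0.000345). Mmp8 was thus the only member of the list called lower in preNeu, and its groups did not overlap. Ceacam10 had 0 counts in TpMo and was at least 385-fold higher in preNeu, with the bound computed from 3 counts over the TpMo group.

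The promoters of 4 of these genes are printed as examples of specific granule genes that were abundant in preNeu and low in TpMo. Each line gives the 120 bases before the RefSeq transcript start on GRCm38.p6, read 5′ to 3′ along the gene, with matches to the C/EBP motif TTGCNNAA in capitals, searched on both strands. The windows are chr9:110419688-110419807 (plus strand) for Ngp, chr9:111019172-111019291 (plus) for Ltf, chr9:109849457-109849576 (minus) for Camp and chr2:32387740-32387859 (minus) for Lcn2.
Ngp: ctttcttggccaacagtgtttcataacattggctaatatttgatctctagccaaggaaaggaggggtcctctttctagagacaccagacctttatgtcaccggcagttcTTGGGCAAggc
Ltf: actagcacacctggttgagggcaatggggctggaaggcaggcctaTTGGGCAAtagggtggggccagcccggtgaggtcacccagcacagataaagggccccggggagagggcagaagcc
Camp: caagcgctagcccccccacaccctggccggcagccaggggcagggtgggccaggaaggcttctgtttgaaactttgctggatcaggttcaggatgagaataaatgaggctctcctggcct
Lcn2: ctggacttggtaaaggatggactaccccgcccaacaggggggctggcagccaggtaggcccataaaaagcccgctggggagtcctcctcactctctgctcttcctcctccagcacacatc
In these windows the Ngp match begins 11 bases before the start and the Ltf match 75 bases before it, and the letters are not in the Camp and Lcn2 windows. Over windows from 250 bases before to 50 bases after the start, the motif was in 4 of 14 specific granule promoters found in RefSeq (28.6%) and in 10.9% of 25748 promoters, and the PU.1 core GAGGAA was in 8 of 14 (57.1%) and 28.2%. A match describes the letters and is not a binding site.

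Azurophil granule genes were also mostly higher in preNeu, with 9 of 11 tested called higher, 1 lower and 1 not called (median log2 2.54). Without preNeu replicate 3, 8 were called higher and 2 lower (median 2.21). Mpo, which encodes myeloperoxidase, was at 6792, 7630 and 13924 CPM in preNeu and 1275, 1279 and 1295 CPM in TpMo (2.88 ± 0.16, adjusted p = 5.04e-14). Elane, the neutrophil elastase gene, was at 3415, 3159 and 5802 CPM against 665.2, 710.7 and 752 CPM (2.54 ± 0.23). All preNeu libraries exceeded all TpMo libraries for both genes, and preNeu replicate 3 was the highest. TpMo thus still held these transcripts. Prtn3, the proteinase 3 gene, was called at 1.18 and not without preNeu replicate 3 (0.63, adjusted p = 0.0652).

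Ctsg and Ctsc did not follow the other azurophil genes. Ctsg, the cathepsin G gene, was at 110.4, 170.5 and 659.6 CPM in preNeu and 193, 228.6 and 223.7 CPM in TpMo, and was not called (0.53, adjusted p = 0.285). Without preNeu replicate 3 it was called lower in preNeu (-0.62, adjusted p = 0.0348), and without preNeu replicate 1 higher (0.92, adjusted p = 0.0331), so its direction depended on single libraries. Ctsc, which encodes the dipeptidyl peptidase that activates granule serine proteases, was at 22.36, 17.11 and 42.66 CPM in preNeu and 1359, 1198 and 1136 CPM in TpMo (-5.54 ± 0.28, adjusted p = 4.12e-15). The groups did not overlap for Ctsc, whose product acts on the proteases whose genes were higher in preNeu.

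Genes of the late neutrophil list were called higher in preNeu for 20 of 30 members, lower for 3 and not for 7. Their median log2 difference was 4.68, 3.75 without preNeu replicate 2, and 3.14 with genes at 0 in a group set to their bound. S100a8, a calprotectin subunit gene, was at 3238, 8220 and 4257 CPM in preNeu and 45.91, 41.07 and 36.81 CPM in TpMo (6.99 ± 0.37). Ly6g, a surface marker of neutrophils, was at 66.33, 109.6 and 61.24 CPM against 0.1183, 0.2842 and 0.5692 CPM (7.88, and 8.57 without TpMo replicate 3). No preNeu library overlapped TpMo in either gene. The members higher in TpMo included Slpi, a protease inhibitor gene (-1.46), and Wfdc17, which had 2 counts in all of preNeu, both in replicate 2.

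Monocyte genes were higher in TpMo for 20 of 30 members, higher in preNeu for 0, and not called for 10. Their median log2 difference was -4.07, or -3.71 with genes at 0 set to their bound, and the absence of calls in the preNeu direction held in each of the 16 other settings run. Fn1 (chromosome 1, 71585520 to 71653200), which encodes fibronectin, was at 2.51, 4.332 and 6.457 CPM in preNeu and 4259, 4414 and 4143 CPM in TpMo (-10.04 ± 0.94, adjusted p = 1.33e-09). Csf1r, the receptor gene for macrophage colony-stimulating factor, was at 6.046, 8.992 and 30.52 CPM against 992.6, 973.2 and 1005 CPM (-6.17 ± 0.55, and -7.04 without preNeu replicate 3). Ccr2, the receptor gene for the chemokine CCL2, was at 3.65, 4.551 and 13.7 CPM against 1339, 1395 and 1390 CPM (-7.76 ± 0.54, and -8.39 without that replicate). F13a1, the coagulation factor XIII A gene, was at 37.02, 53.19 and 203.7 CPM against 6352, 6449 and 6271 CPM (-6.05, and -7.14 without it). The TpMo libraries lay within a narrow band in these genes, and preNeu replicate 3 was the highest preNeu library each time. The part of other cells in these levels was not tested.

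Lyz2, the lysozyme M gene and a common marker of both paths, was not called. It was at 24663, 29566 and 18285 CPM in preNeu and 26805, 28915 and 27624 CPM in TpMo, so the groups overlapped (-0.2 ± 0.23, adjusted p = 0.566). Ly6c2, which encodes the Ly6C antigen, was at 655.1, 1136 and 1295 CPM in preNeu and 2771, 2810 and 3101 CPM in TpMo (log2 -1.49), a much smaller difference than that of Fn1 or Ccr2. Both populations therefore carried Ly6c2 transcripts, with all TpMo libraries above all preNeu libraries.

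**Figure D2:**
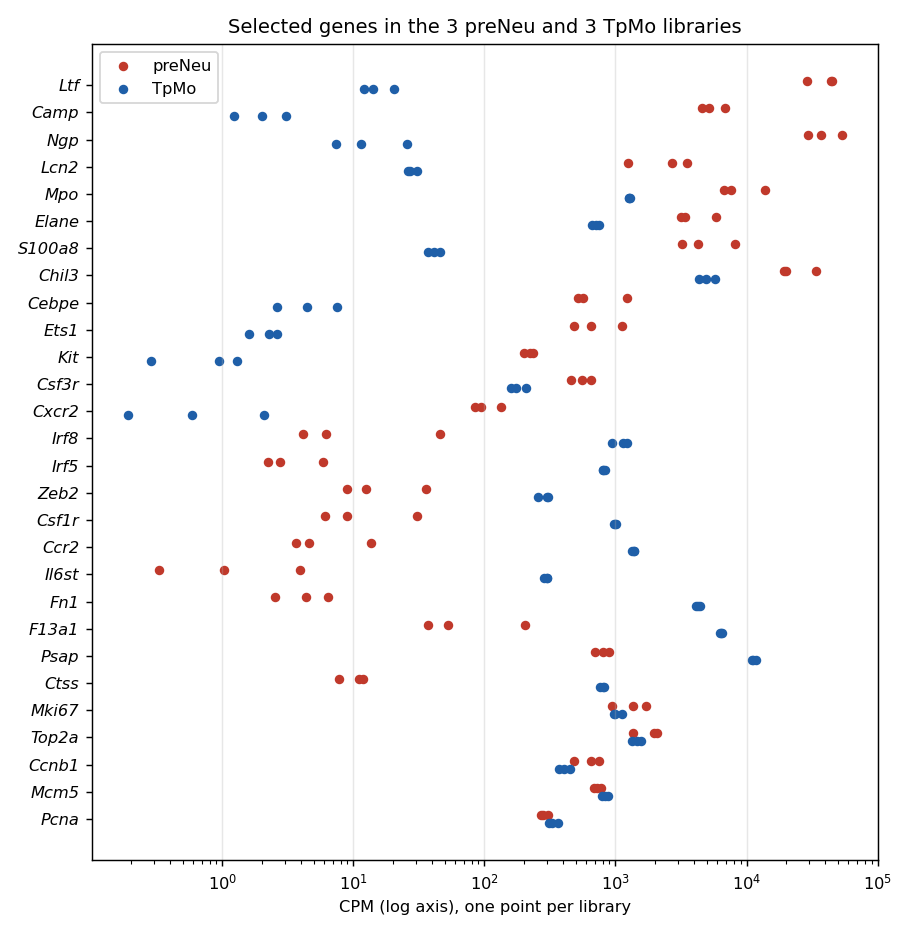
CPM on a log axis for selected genes (rows), 1 point per library, with the 3 preNeu libraries in red and the 3 TpMo libraries in blue. Granule and monocyte genes separate the groups without overlap, whereas Mki67, Top2a, Mcm5 and Pcna lie close together. Of these close genes, Mki67 and Top2a overlap, and Mcm5 and Pcna narrowly do not.

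Among transcription factors, the neutrophil-path list had 8 of 13 members called higher in preNeu and 0 higher in TpMo (median log2 1.34, and 2.25 without TpMo replicate 3). Cebpe, the C/EBP-epsilon gene, was at 1220, 567.6 and 516.6 CPM in preNeu and 2.603, 4.453 and 7.494 CPM in TpMo (7.29 ± 0.56, adjusted p = 3.27e-11). Ets1, better known from lymphocytes, was at 1117, 648.5 and 486.6 CPM against 2.603, 1.611 and 2.277 CPM (8.45 ± 0.55). Gfi1, a repressor of monocyte genes, was at 24.01, 37.07 and 31.31 CPM in preNeu and had 2 counts in TpMo, both in replicate 1, a ratio of 909 with a 95% counting interval of 251 to 7510. Each of these genes was expressed in every preNeu library and close to absent in TpMo. Klf5 (6.66) and the progenitor factor gene Myb (2.44) were also called higher in preNeu.

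The shared myeloid factor genes gave less certain values. Spi1, which encodes PU.1, was at 660, 679.2 and 565.9 CPM in preNeu and 109.5, 163.8 and 478.9 CPM in TpMo (1.34, adjusted p = 0.0165). TpMo replicate 3 lay near preNeu, and the call was lost without TpMo replicate 1 (1.01), TpMo replicate 2 (1.11) or preNeu replicate 1 (1.3), whereas the value was 2.25 without TpMo replicate 3. Cebpd had the same pattern, with 152.3 CPM in TpMo replicate 3 against 35.14 and 24.68 CPM in the others, and lost its call of 2.13 without TpMo replicate 1 (1.84) or 2 (1.73), the value being 3.41 without replicate 3. Cebpa, required for the first granulocyte-monocyte step, was not called (-0.68, adjusted p = 0.0893), but was called higher in TpMo without preNeu replicate 3 (-0.96, adjusted p = 0.0253) and, at -0.87, without scaling factors. Runx1 was not called (-0.04, adjusted p = 0.926).

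Of 31 monocyte-path transcription factors, 12 were called higher in TpMo, 3 higher in preNeu and 16 not (median log2 -0.76). Irf8 was at 4.107, 6.141 and 45.79 CPM in preNeu and 934.9, 1225 and 1144 CPM in TpMo (-6.06 ± 0.73, adjusted p = 1.43e-07, and -7.75 without preNeu replicate 3). Klf4 was at 0.2281, 0 and 0.3913 CPM against 98.16, 111.3 and 123.6 CPM (-9.46 ± 0.98, with -10.15 and -8.65 without preNeu replicates 1 and 2), and Irf5, an activator of inflammatory cytokine genes, at 2.224, 2.742 and 5.87 CPM against 805.4, 809.6 and 829.7 CPM (-8 in log2, adjusted p = 1.49e-12). Zeb2, a factor of monocyte fate, was less far apart, at 12.43, 8.992 and 36 CPM against 255.9, 303.1 and 298.1 CPM (-3.99 ± 0.33, and -4.74 without preNeu replicate 3). No library of preNeu reached the lowest TpMo library in any of these genes. The members higher in preNeu included Bhlhe40 (4.45) and Id2, an inhibitor of E proteins (1.3).

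Both populations divide, and their cell cycle genes differed by group of genes. Of 41 DNA replication genes, 2 were called higher in preNeu, 6 higher in TpMo and 33 not, with a median log2 difference of -0.16. Of all genes, 13.2% were called higher in preNeu and 15.1% higher in TpMo. Without scaling factors 1 was higher in preNeu and 15 higher in TpMo (median -0.37), and against a fold change of 1.5 the counts were 0 and 0. Their summed level was 10393, 10430 and 9082 CPM in preNeu and 10193, 10551 and 9757 CPM in TpMo, so the sums overlapped. Gene by gene, the libraries did not overlap for 5 members higher in preNeu and 14 higher in TpMo, beside 38.6% of all genes. Mcm5, a helicase subunit gene, was at 721, 781 and 688 CPM against 838, 880.1 and 783.6 CPM (-0.19, adjusted p = 0.439), and Pcna, the sliding clamp gene, at 304.3, 277.8 and 268.5 CPM against 313.2, 363.7 and 329.3 CPM (-0.24, adjusted p = 0.114). Rrm2, which encodes the regulated subunit of ribonucleotide reductase, was the larger of the differences toward preNeu, at 1815, 1411 and 987.5 CPM against 790.4, 842.1 and 716.6 CPM (0.84 ± 0.15, adjusted p = 8.42e-05). Toward TpMo, the helicase subunit gene Mcm6 was at 613.4, 699.4 and 689.1 CPM against 906.6, 970.9 and 855.8 CPM (-0.45 ± 0.13, adjusted p = 0.00709), and Pola2, a subunit of the priming polymerase, at -0.72. The range of log2 differences over the list, -0.96 to 0.84, was narrow beside that of the granule and monocyte lists.

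Mitotic genes were higher in preNeu for a minority of members. Of 67 G2 and M phase genes tested, 19 were called higher in preNeu, beside 13.2% of all genes, 3 higher in TpMo and 45 not, with a median log2 difference of 0.35. Their summed level was 24890, 25100 and 18879 CPM in preNeu and 19370, 18474 and 18189 CPM in TpMo, and preNeu replicate 3 lay within the range of TpMo, so that the sums overlapped. The count called higher depended on single libraries: it was 10 without TpMo replicate 2, 10 without preNeu replicate 2, 26 without preNeu replicate 3, 35 by limma voom, 9 without scaling factors and 2 against a fold change of 1.5. The median was above 0 in each of the settings run, from 0.14 without scaling factors to 0.47 without preNeu replicate 3.

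Cdc20, the activator of the anaphase-promoting complex, was at 664.9, 712.7 and 526.2 CPM in preNeu and 372, 329.7 and 354.4 CPM in TpMo (0.85 ± 0.13, adjusted p = 5.54e-06). Spc25, a kinetochore gene, was at 583.7, 371 and 246.5 CPM against 174.2, 185.9 and 171.4 CPM (1.18 ± 0.19, adjusted p = 1.56e-05). Ccnb1, the mitotic cyclin B1 gene, was at 745.4, 651.9 and 483.3 CPM against 447.5, 368.5 and 408 CPM (0.62 ± 0.19, adjusted p = 0.0161), and lost its call without TpMo replicate 2 (0.55), preNeu replicate 1 (0.46) or preNeu replicate 2 (0.58). The groups did not overlap in these genes. The widely used marker Mki67 was at 1721, 1365 and 937.5 CPM against 966.4, 1126 and 998.2 CPM and was not called (0.38 ± 0.17, adjusted p = 0.092). Without preNeu replicate 3 Mki67 was called (0.58, adjusted p = 0.0059). Top2a, the gene of the topoisomerase that untangles chromosomes, overlapped too, at 2065, 1985 and 1351 CPM against 1577, 1464 and 1333 CPM (0.3 ± 0.18, adjusted p = 0.217).

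Fzr1, which encodes CDH1, the activator of the same complex at mitotic exit and in G1, was the largest log2 difference of the list at 1.47. It was at 365.7, 393.7 and 324.6 CPM in preNeu and 78.16, 65.42 and 248.6 CPM in TpMo, and was not called without TpMo replicate 1 (1.23) or TpMo replicate 2 (1.14), with 2.37 without TpMo replicate 3. TpMo replicate 3 was also the TpMo library nearest to preNeu for Spi1 and Cebpd. Members higher in TpMo were Pttg1, the securin gene (-1.1), Racgap1, a cytokinesis gene (-0.4), and Aurkb, the aurora B kinase gene (-0.32). Racgap1 and Aurkb were not called without any single TpMo library, with -0.36 to -0.39 and -0.23 to -0.34, nor without preNeu replicate 3 (-0.35 and -0.24), and Racgap1 not without preNeu replicate 1 (-0.37).

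Promoters of 4 mitotic genes are printed because the cell cycle genes homology region (CHR, TTTGAA) and the CCAAT box are the known elements of this gene class. Each line gives the 120 bases before the RefSeq start on GRCm38.p6, 5′ to 3′ along the gene, with matches to TTTGAA or CCAAT on either strand in capitals. The windows are chr4:118437344-118437463 (minus strand) for Cdc20, chr11:99024190-99024309 (minus) for Top2a, chr13:100786487-100786606 (minus) for Ccnb1 and chr7:122159315-122159434 (plus) for Plk1, the polo-like kinase gene.
Cdc20: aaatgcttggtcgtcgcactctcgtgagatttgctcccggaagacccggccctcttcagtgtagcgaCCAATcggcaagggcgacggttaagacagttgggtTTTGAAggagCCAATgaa
Top2a: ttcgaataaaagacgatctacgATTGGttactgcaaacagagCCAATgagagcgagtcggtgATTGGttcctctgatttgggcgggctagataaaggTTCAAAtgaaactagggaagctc
Ccnb1: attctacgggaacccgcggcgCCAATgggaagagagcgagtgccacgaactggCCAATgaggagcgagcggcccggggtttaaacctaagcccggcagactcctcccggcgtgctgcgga
Plk1: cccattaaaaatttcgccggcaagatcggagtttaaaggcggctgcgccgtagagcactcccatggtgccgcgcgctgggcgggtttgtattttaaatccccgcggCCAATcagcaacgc
The Cdc20 and Top2a windows hold the CHR letters 18 and 23 bases before the start together with CCAAT boxes, and the Ccnb1 and Plk1 windows hold CCAAT boxes. Over 250 bases before to 50 bases after the start, TTTGAA was in 37 of 55 G2 and M phase promoters (67.3%) and in 17.7% of all promoters, CCAAT in 41 (74.5%) and 37.8%, and both in 32 (58.2%) and 7.03%. For DNA replication genes the E2F letters TTCCCGC were in 14 of 32 promoters (43.8%) and in 4.71% of all. These shares describe the class and not the difference between the populations, since called and uncalled members are counted together.

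Regulators of the G1 phase were called in both directions. Of 37 tested, 11 were called higher in preNeu, 6 higher in TpMo and 20 not, and the median of 0.13 turned to -0.09 without scaling factors and to -0.05 without preNeu replicate 1. Cdk6, the cyclin D partner kinase gene, was at 325.1, 302.8 and 406 CPM in preNeu and 112.2, 91.81 and 95.81 CPM in TpMo (1.78 ± 0.11, adjusted p = 5.81e-13), whereas Cdk4, its close relative, was at 90.52, 140.6 and 250.5 CPM against 394.7, 364.7 and 372.8 CPM (-1.24, adjusted p = 5.17e-06). The kinase genes thus differed in opposite directions, each without overlap. Ccnd3, the cyclin D3 gene, was at 2235, 2303 and 1765 CPM against 1312, 1268 and 1309 CPM (0.7, adjusted p = 5.07e-06), and Tfdp1, an E2F partner gene, at 534.3, 654.4 and 544.9 CPM against 177.1, 172.9 and 197.3 CPM (1.66). Cdkn1a, which encodes the p21 inhibitor, was higher in TpMo at 48.16, 59.83 and 80.92 CPM against 8.67, 4.88 and 8.414 CPM (-3.11 ± 0.49, adjusted p = 1.14e-05), and so was the antiproliferative gene Btg2 (-1.9). Cdkn2d, the p19 inhibitor gene, was higher in preNeu (1.0, adjusted p = 0.00022).

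In the MYC and MXD network, 4 of 13 genes were called higher in preNeu and 0 higher in TpMo, with a median of 0.16 that was -0.05 without scaling factors and 0.75 without TpMo replicate 3. Without preNeu replicate 3, 2 genes were called higher in TpMo, Myc and Tfap4, a MYC target gene (-1.36, adjusted p = 0.0251, against -0.78, adjusted p = 0.184, with all libraries). Mxd1, which encodes a repressor that competes with MYC for MAX, was at 615, 643.1 and 468.4 CPM in preNeu and 29.05, 39.03 and 40.13 CPM in TpMo (4 in log2, adjusted p = 2.16e-12). Max itself was at 173.1, 160.4 and 145 CPM against 86.68, 65.56 and 76.98 CPM (1.06, adjusted p = 9.97e-07). Myc was at 45.74, 43.26 and 148.5 CPM against 62.06, 71.63 and 93.1 CPM and was not called (0.04, adjusted p = 0.966), but without preNeu replicate 3 it was called lower in preNeu (-0.77, adjusted p = 0.00801). Only preNeu replicate 3 exceeded TpMo for Myc.

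Ribosome biogenesis genes, many of them known targets of MYC, were higher in TpMo for 22 of 46 members and higher in preNeu for 1, with a median log2 difference of -0.62. Their summed level was 1422, 1814 and 3103 CPM in preNeu and 3206, 3274 and 3241 CPM in TpMo. The sums did not overlap, though preNeu replicate 3 lay close to TpMo. The count higher in TpMo was 37 without preNeu replicate 3, 10 without preNeu replicate 1, 12 without preNeu replicate 2, 12 without TpMo replicate 2, 14 without TpMo replicate 3, 8 with only the 6 libraries in the fit and 7 against a fold change of 1.5. Utp20, a gene of the small subunit processome, was at 7.016, 6.525 and 10.96 CPM in preNeu and 30.53, 28.56 and 25.28 CPM in TpMo (-1.83 ± 0.25, adjusted p = 1.17e-06), and Npm1, the nucleophosmin gene, at 105.3, 221.4 and 420.1 CPM against 671.7, 635 and 619.9 CPM (-1.37, and -1.98 without preNeu replicate 3). Npm1 has processed pseudogenes, and how reads with several positions were counted is not given in the sources used here.

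**Figure D3:**
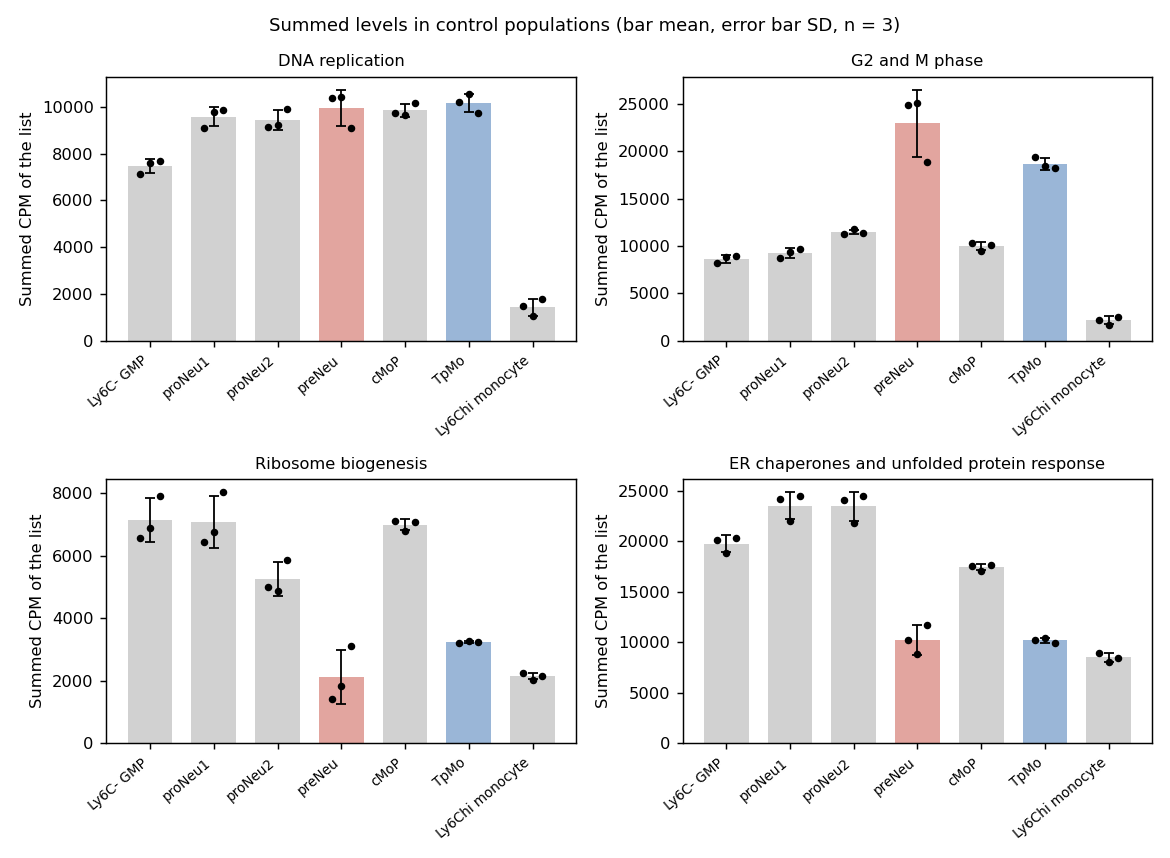
Summed CPM of 4 gene lists in the 7 control populations, with bars for the mean, error bars for the SD and points for the 3 libraries of each. Mitotic sums are highest in preNeu and TpMo, replication sums are similar from proNeu1 to TpMo, and the sums of ribosome biogenesis and endoplasmic reticulum genes are lower in preNeu and TpMo than in proNeu2 and cMoP.

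The stages before give these levels a scale. The G2 and M phase sum was 11455 ± 250 CPM in proNeu2 and 9960 ± 446 CPM in cMoP (SD, n = 3), with each library of these below every preNeu and TpMo library. The DNA replication sum was 9130 to 9930 CPM in proNeu2 and 9639 to 10182 CPM in cMoP, in the range of the later populations. Ribosome biogenesis summed to 4881 to 5874 CPM in proNeu2 and 6805 to 7112 CPM in cMoP, above every preNeu and TpMo library. The mitotic sum was thus higher and the ribosome biogenesis sum lower in the later population on both paths, as levels with no test of the sums.

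Endoplasmic reticulum chaperones and unfolded protein response genes summed to similar levels, 8775 to 11673 CPM in preNeu and 9914 to 10382 CPM in TpMo. Of 36 members, 3 were called higher in preNeu, 9 higher in TpMo and 24 not (median -0.09), beside 13.2% and 15.1% of all genes called higher. The 9 became 5 without TpMo replicate 2, 3 with only the 6 libraries in the fit and 2 against a fold change of 1.5. Ero1l, the gene of an oxidase for disulfide bonds, was at 1079, 722.1 and 532 CPM in preNeu and 98.27, 109.2 and 129.2 CPM in TpMo (2.79, adjusted p = 6.34e-12). The stress sensor genes Ern1 (-1.12) and Atf6 (-1.07) were higher in TpMo. The libraries of the groups did not overlap for Ero1l.

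Receptors for growth factors and cytokines divided by path. Of 27 members, 6 were called higher in preNeu, 11 higher in TpMo and 10 not (median -0.35). Kit, the stem cell factor receptor gene, was at 224.6, 202.2 and 235.6 CPM in preNeu and 1.302, 0.2842 and 0.9486 CPM in TpMo (8.06 ± 0.28, adjusted p = 2.27e-18). Csf3r, the receptor gene for granulocyte colony-stimulating factor, was at 650.4, 553 and 460 CPM against 173.9, 160.6 and 207.3 CPM (1.62 ± 0.14), and so was also present in TpMo. Il6st, which encodes gp130, was at 1.027, 0.329 and 3.913 CPM in preNeu and 302.2, 287.3 and 298.2 CPM in TpMo (-7.9 ± 0.62, with -7.24 and -8.77 without preNeu replicates 2 and 3), and Il6ra, its interleukin 6 partner, at 76.89, 75.45 and 60.66 CPM against 608.3, 562.4 and 603.8 CPM (-3.05). Both chains of the interleukin 6 receptor were therefore higher in TpMo. Csf2rb, the common beta chain gene, was not called (-0.1, adjusted p = 0.672).

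Of 24 chemoattractant receptors tested, 10 were called higher in preNeu and 8 higher in TpMo (median 1.25). Cxcr2, the receptor gene for neutrophil chemokines, was at 84.19, 132.7 and 94.31 CPM in preNeu and 0.5917, 0.1895 and 2.087 CPM in TpMo (6.73 ± 0.62, and 8.13 without TpMo replicate 3). C5ar1, the C5a receptor gene, was at 430.9, 440.1 and 253 CPM against 12.31, 10.42 and 11 CPM (5.06), and Ltb4r1, the leukotriene B4 receptor gene, at 611.9, 809.6 and 605.4 CPM against 156.2, 157.2 and 168.1 CPM (2.07). Cx3cr1, the fractalkine receptor gene, went with Ccr2 toward TpMo at 0.4563, 1.974 and 5.479 CPM against 87.21, 102.7 and 98.65 CPM (-5.54). Its value was -4.92 without preNeu replicate 1 and -6.3 without preNeu replicate 3. Cxcr4, which retains cells in the marrow, was at 32.63, 21.33 and 16.04 CPM against 53.37, 43.01 and 31.83 CPM. The Cxcr4 libraries overlapped, and its call toward TpMo (-0.86, adjusted p = 0.0244) was lost without TpMo replicate 1 (-0.64), TpMo replicate 2, preNeu replicate 2 (-0.81) or preNeu replicate 3 (-0.67).

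Innate sensing genes were called more often toward TpMo than toward preNeu. Of 29 Toll-like receptors and partners, 16 were called higher in TpMo and 3 in preNeu (median -1.4), and of 29 Fc receptors, C-type lectins and related receptors 13 and 7, with 9 not called (median -0.93). Unc93b1, the chaperone gene of endosomal Toll-like receptors, was at 373.5, 458.2 and 439.1 CPM in preNeu and 1347, 1391 and 1410 CPM in TpMo (-1.71, adjusted p = 2.29e-12). Ly86, which encodes a partner of the receptor RP105, was at 1.369, 0.8773 and 8.218 CPM against 174.5, 181.5 and 187.1 CPM (-6.12, and -7.33 without preNeu replicate 3). The Toll-like receptor members higher in preNeu were Tlr4, the lipopolysaccharide receptor gene (1.38), its adaptor gene Tirap (1.54) and Irak3, an inhibitor of the pathway (1.8). Clec5a (2.08) and Clec12a (1.97), lectin receptor genes, and Trem1 (3.16), an activating receptor gene, were also higher in preNeu.

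Adhesion genes divided almost evenly, with 13 of 33 higher in preNeu and 14 higher in TpMo (median 0.06, and -0.15 without scaling factors). Itgb2l, a beta integrin-like gene, was at 1832, 1486 and 1011 CPM in preNeu and 0.71, 0 and 0.5692 CPM in TpMo (11.76, and 11.14 without TpMo replicate 2). Vcam1, an adhesion molecule gene that marrow macrophages also express, was at 216.9, 343.9 and 205.1 CPM against 0.8283, 1.137 and 2.087 CPM (7.54 ± 0.52). Itgb7, a gene for an integrin chain of gut homing cells, was at 7.757, 2.742 and 6.261 CPM in preNeu and 567.3, 981.6 and 1378 CPM in TpMo (-7.48), and Selplg, the P-selectin ligand gene, at 208.1, 211.4 and 211.3 CPM against 1660, 1691 and 1817 CPM (-3.03, adjusted p = 1.07e-17). Itgb7 varied more among TpMo libraries than the other members named here.

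Lysosomal genes were higher in TpMo for 22 of 32 members and higher in preNeu for 4 (median -1). Psap, the gene of the precursor of the saposins, was at 809.4, 886.6 and 694.6 CPM in preNeu and 11080, 11862 and 11306 CPM in TpMo (-3.84 ± 0.15, adjusted p = 2.23e-17). Ctss, the cathepsin S gene, was at 11.07, 7.786 and 11.94 CPM against 768.7, 822.7 and 810 CPM (-6.31). Cd63, a tetraspanin gene whose product sits in azurophil granules of neutrophils, was the exception at 540.9, 429.4 and 471.2 CPM in preNeu against 0.8283, 3.505 and 3.51 CPM in TpMo (7.49 ± 0.38). Neu1, a sialidase gene, was also higher in preNeu (2.09).

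Genes of the phagocyte oxidase were higher in preNeu for 4 of 5 members tested (median 1.31), with Cybb left out because it lies on X. Ncf1, which encodes p47phox, was at 804.4, 1619 and 1049 CPM in preNeu and 289.9, 311.2 and 276.1 CPM in TpMo (1.98, adjusted p = 6.16e-10). Rac2, the small GTPase of the complex, was higher in preNeu (1.55).

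Metabolic genes differed in part. Of 23 glycolysis genes, 12 were called higher in preNeu and 3 higher in TpMo (median 0.33), and of 43 respiratory chain genes 1 and 18 (median -0.33). Over all settings run, glycolysis calls toward preNeu ranged from 8 to 13 and respiratory chain calls toward TpMo from 2 to 23. The respiratory chain median ranged from -0.52 to -0.27. Slc2a3, the GLUT3 glucose transporter gene (chromosome 6, 122727809 to 122801640), was at 658.6, 380.4 and 282.2 CPM in preNeu and 4.142, 6.016 and 6.545 CPM in TpMo (6.3 ± 0.47, adjusted p = 1.42e-11). Slc2a1, the GLUT1 gene, was at 7.016, 19.96 and 23.28 CPM against 41, 33.4 and 44.54 CPM (-1.27, adjusted p = 0.00249). It was not called with only the 6 libraries in the fit. The transporter genes thus differed in opposite directions without overlap. Gpi1, glucose phosphate isomerase, was at 1797, 3539 and 2662 CPM against 722.8, 707.2 and 706.1 CPM (1.9), and Pfkp, a phosphofructokinase gene, was higher in TpMo (-1.53). Uqcrfs1, the Rieske subunit gene of complex III, was at 107.5, 117.3 and 116.6 CPM in preNeu and 244.2, 260.4 and 237.4 CPM in TpMo (-1.12, adjusted p = 2.5e-10).

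Lipid mediator and lipid droplet genes were higher in preNeu for 12 of 32 members and higher in TpMo for 6 (median 0.39). Alox5, which encodes 5-lipoxygenase, was at 750.9, 824 and 549 CPM in preNeu and 12.66, 14.4 and 12.85 CPM in TpMo (5.73 ± 0.50). Lta4h, the gene of the next enzyme toward leukotriene B4, was at 3546, 3601 and 2713 CPM against 341.2, 358.3 and 364.7 CPM (3.21, adjusted p = 2.38e-17). Both enzymes of that route and the receptor gene Ltb4r1 were higher in preNeu in every library. Lpl, the lipoprotein lipase gene, was higher in TpMo (-4.03, adjusted p = 0.00144).

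Iron genes divided evenly, with 8 of 22 called in each direction (median 0.05, with -0.16 without scaling factors, -0.05 without TpMo replicate 3 and -0.39 without preNeu replicate 2). Slc40a1, which encodes the iron exporter ferroportin, was at 752.5, 570.5 and 381.2 CPM in preNeu and 2.13, 0.5685 and 1.613 CPM in TpMo (8.65 ± 0.65). Fth1, the ferritin heavy chain gene, was at 131.6, 155.8 and 198.8 CPM against 468.1, 471.9 and 505 CPM (-1.57, adjusted p = 5.79e-11). The exporter was high where the storage protein gene was lower, and the groups did not overlap for either gene.

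Interferon-stimulated genes were higher in TpMo for 23 of 50 members and higher in preNeu for 7 (median -0.98), beside 15.1% and 13.2% of all genes. Ifi30, a lysosomal thiol reductase gene, was at 2.681, 3.235 and 8.805 CPM in preNeu and 280.8, 286.7 and 263.9 CPM in TpMo (-6 in log2, adjusted p = 1.4e-11). Ly6e was at 106.4, 127 and 374.9 CPM against 3517, 2786 and 3396 CPM (-4.01, and -4.8 without preNeu replicate 3). Mx2 had 0 counts in preNeu and was at least 67.3-fold higher in TpMo. Ifitm6 (2.4), a marker of myeloid maturation, and the RNA sensor gene Ddx58 (2.28) were higher in preNeu. Gene copies in the Ifit, Oas and Slfn families are close, and their counts are uncertain for that reason.

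Genes of the nuclear envelope, lamina and chromatin had 5 of 19 called in each direction (median -0.11), and 8 toward TpMo without scaling factors. Syne1, which encodes nesprin 1, a linker of nucleus and cytoskeleton, was at 1258, 1210 and 908.5 CPM in preNeu and 7.573, 3.932 and 3.889 CPM in TpMo (7.79 ± 0.60). Padi4, whose enzyme citrullinates histones, was at 615.8, 663.1 and 429.5 CPM against 65.44, 70.82 and 64.31 CPM (3.09), whereas its relative Padi2 was at 0.9126, 0.4387 and 4.5 CPM against 136.7, 109.5 and 116.6 CPM (-6.43, with -5.82 and -7.48 without preNeu replicates 2 and 3). Lbr, the lamin B receptor gene needed for nuclear lobing, was not called (0.11, adjusted p = 0.583). In the BCL2 family, 2 of 18 were higher in preNeu and 5 higher in TpMo (median -0.19), beside 13.2% and 15.1% of all genes. The survival gene Bcl2l1 was higher in preNeu (1.56). Higher in TpMo were the survival gene Mcl1 (-0.93, adjusted p = 0.000271) and the death-promoting genes Bax (-1.52) and Pmaip1 (-2.97), so that survival genes differed in both directions.

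**Figure D4:**
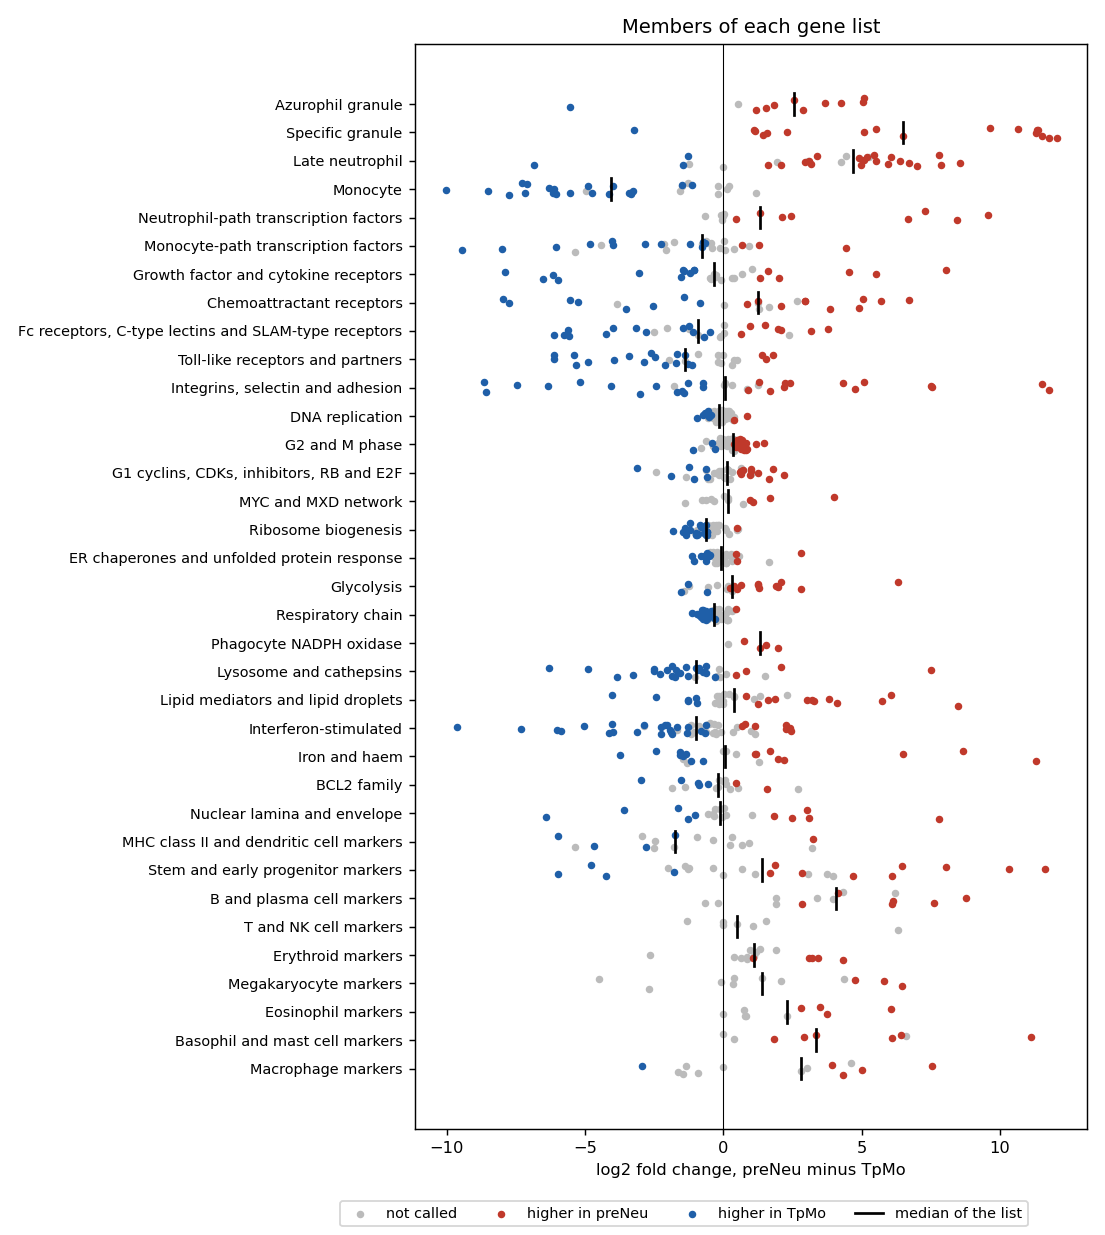
Fitted log2 difference, preNeu minus TpMo, of each tested member (points) of 35 gene lists (rows), coloured by call, with the median of each list as a black bar. Granule lists lie to the right and monocyte, lysosome and Toll-like receptor lists to the left, the cell cycle lists lie near 0, and values of genes with 0 counts in a group depend on the fit.

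Beyond the lists, the genes with the largest differences were taken among those whose higher group averaged at least 50 CPM. Enpp5, a gene of the phosphodiesterase family, was at 175.8, 121.9 and 102.9 CPM in preNeu with 0 counts in TpMo, at least 2810-fold higher. Chit1, the chitotriosidase gene, was at least 2343-fold higher, Ifnlr1, the interferon lambda receptor gene, at least 1464-fold, and Orm1, an acute phase protein gene, at least 1159-fold. Igf2r, a gene of a sorting receptor for lysosomal enzymes, had 2 counts in TpMo, both in replicate 3, and a ratio of 4828 (95% counting interval 1336 to 39877). Toward TpMo, Ms4a4b had 0 counts in preNeu and was at least 742-fold higher, and Cd300lg had 2 counts, both in preNeu replicate 2, a ratio of 2160 (598 to 17843). Ahnak, a gene for a very large scaffold protein, was at 1.939, 1.206 and 2.348 CPM in preNeu and 884.1, 919.6 and 939.2 CPM in TpMo (-9.06, adjusted p = 1.49e-13), and Capn2, a calpain gene, at 0.4563, 0.1097 and 1.761 CPM against 300.9, 281.4 and 292.9 CPM (-9.17, and -8.48 and -10 without preNeu replicates 2 and 3). Intervals and bounds cover counting error only, and 76.2% of counts from 1 to 10 in the table were even, so 2 counts may come from a single sequenced fragment.

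Markers of other cell types were examined because a gate can admit them. Of 9 basophil and mast cell markers tested, 6 were called higher in preNeu, and the list summed to 781.6, 685.1 and 631.4 CPM in preNeu and 14.2, 14.83 and 16.46 CPM in TpMo. Hdc, the histamine synthesis gene, made up most of it at 647.1, 626.7 and 576.2 CPM against 7.928, 7.153 and 6.261 CPM. The other members called higher were Ms4a2, Gata2 (6.08, on 2 counts in TpMo), Prss34 (3.34), Cpa3 (2.91) and Mcpt8 (1.84). Ms4a2 had 0 counts in TpMo and was at least 289-fold higher in preNeu. Gata2, Cpa3 and Mcpt8 were not called by limma voom. Cpa3 was at 2.851 to 4.905 CPM and Cma1 at 0 in preNeu. Hdc was also at 761.5 ± 16.4 CPM in proNeu2. Of 9 eosinophil markers, 4 were higher in preNeu, with sums of 60.8 to 90.01 CPM against 3.905 to 13.33 CPM. The 4 were Ccr3 (6.06, on 2 counts in TpMo), Siglecf (3.75), Epx (3.5) and Prg2 (2.82), and Il5ra was at 0 in all 6 libraries. Epx and Prg2 were not called by limma voom, nor Ccr3 without TpMo replicate 1 or 3. The part of such cells in the granule results was not tested.

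For the other lists, 4 of 13 macrophage markers were higher in preNeu (2 without TpMo replicate 2, TpMo replicate 3 or preNeu replicate 1) and 1 in TpMo, with Mertk at 0 in all 6 libraries and sums of 245.2 to 376.9 CPM against 164.9 to 181.7 CPM. Vcam1 made up most of the sum in preNeu and Adgre1, at 120.8 to 147.1 CPM, most of it in TpMo. Of 14 B and plasma cell markers, 6 were higher in preNeu, with sums of 352.8 to 1051 CPM against 625.8 to 724.7 CPM that overlapped and were mostly Ighm, which was not called. Igkc was at 13.97, 1.151 and 134.6 CPM in preNeu and Jchain at 3.308, 0.2193 and 53.22 CPM, highest in replicate 3. Without that replicate Igkc was at 4.95 in place of 7.61, and Jchain was not called (2.84, adjusted p = 0.148, in place of 6.12). Jchain was at 6.86 without TpMo replicate 1 and 6.75 without preNeu replicate 2. Of 15 erythroid markers 5 were higher in preNeu, 3 without preNeu replicate 3 and 7 without TpMo replicate 1, with sums of 53.52 to 117.4 CPM against 19.35 to 24.02 CPM, and Car1 was not called without preNeu replicate 3 (2.19). Of 11 megakaryocyte markers 3 were higher in preNeu, with sums of at most 15.46 CPM and Pf4 at 0 counts in preNeu. Of 7 T and NK cell markers with enough counts 0 were called, with sums of at most 7.244 CPM, and 13 had too few counts. Of 17 dendritic cell markers 4 were higher in TpMo, among them H2-DMa (-4.67), and 1 in preNeu, beside 15.1% and 13.2% of all genes. The dendritic cell marker sums were 175.9 to 219.7 CPM in preNeu and 764.4 to 919.9 CPM in TpMo. Their part in the differences was not tested.

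Progenitor markers did not move as a block. Of 24, 9 were higher in preNeu and 4 higher in TpMo (median 1.4, and 0.05 without preNeu replicate 3, with the counts at 9 and 4). Hlf, a transcription factor gene of stem cells, was at 20.82, 20.34 and 17.22 CPM in preNeu with 0 counts in TpMo, at least 397-fold higher. Erg, an ETS factor gene, was at 62.51, 50.34 and 38.94 CPM and had 2 counts in TpMo, both in replicate 2, a ratio of 1600 (442 to 13216). Cd48 was at 12.66, 13.32 and 43.44 CPM in preNeu and 416.6, 391 and 424.7 CPM in TpMo (-4.23, and -4.99 without preNeu replicate 3). Cd34, a surface marker of progenitors, was at 5.362, 0.4387 and 34.83 CPM against 33.61, 42.3 and 43.02 CPM, with preNeu replicate 3 inside the TpMo range. Its call toward TpMo (-1.77, adjusted p = 0.0276) was lost without TpMo replicate 2 (-1.72), TpMo replicate 3 (-1.69), preNeu replicate 1 (-1.38) or preNeu replicate 2 (-1.11), and was -3.78 without preNeu replicate 3.

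The same contrast a stage earlier, proNeu2 against cMoP, shares no library with preNeu against TpMo. Its groups were split by sex in the same way, with Xist at 369.2 to 421.7 CPM in proNeu2 and 0.2068 to 1.235 CPM in cMoP. It called 4293 genes, and 2632 genes were called in both contrasts, 2553 of them in the same direction and 79 in opposite directions. The 2553 are 51.4% of the late and 59.5% of the early calls. A direct test of the late minus the early difference called 1424 genes (8.09%), 661 positive (3.75%) and 763 negative (4.33%). Positive means a value shifted toward the neutrophil side at the later stage. Of the list members, 8 of 17 specific granule genes were called positive and 0 negative, and 9 of 30 monocyte genes negative and 1 positive. Of 41 DNA replication genes 0 were positive and 1 negative, and of 67 G2 and M phase genes 3 and 2.

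Of the 10 genes named for that test, Kit had the lowest p. It was at 392.3 ± 42.3 CPM in proNeu2 and 187.2 ± 28.9 CPM in cMoP, against 220.8 ± 17.0 CPM in preNeu and 0.8448 ± 0.517 CPM in TpMo (SD, n = 3). The early log2 difference was 1.07 and the late 8.06, so the difference between them was 6.99 ± 0.32 (adjusted p = 1.8e-14). Kit was thus present in both early populations and in preNeu, and close to absent in TpMo. The part of the sort gates in these Kit levels was not tested.

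Other genes had their lowest level in TpMo too. Nedd4, a ubiquitin ligase gene, was at 312.7 ± 2.53 CPM in proNeu2, 309 ± 70.8 in preNeu, 78.52 ± 3.44 in cMoP and 1.373 ± 1.48 in TpMo (difference 5.89 ± 0.46, and 7.25 without TpMo replicate 1, where the late difference was 9.22 in place of 7.89). Cd81, a tetraspanin gene, was at 634.8 ± 46.0, 545.7 ± 165, 97.12 ± 6.19 and 15.97 ± 0.895 CPM in the same order (2.39 ± 0.21). In both genes the mean of cMoP lay between those of TpMo and proNeu2. Shisa5, a gene of the endoplasmic reticulum, was at 124.4 ± 16.2, 74.34 ± 6.89, 181.4 ± 12.8 and 772.9 ± 19.3 CPM (-2.84 ± 0.17), with the highest level in TpMo. Tpd52 (-2.49) and Ctsa, the protective protein of lysosomal enzymes (-1.87), had the same order of populations, with TpMo highest and preNeu lowest.

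On the neutrophil side, Lcn2 was at 24.55 ± 11.04 CPM in proNeu2, 2495 ± 1166 in preNeu, 11.55 ± 4.22 in cMoP and 27.97 ± 2.11 in TpMo (5.39 ± 0.45, adjusted p = 5.84e-09). Adpgk, an ADP-dependent glucokinase gene, was at 371 ± 50.1, 3489 ± 822, 100.5 ± 14.1 and 95.56 ± 11.1 CPM (3.31 ± 0.24). Ica1 was at 82.87 ± 1.87, 183.1 ± 36.0, 21.02 ± 1.7 and 3.833 ± 1.43 CPM (3.61 ± 0.26). Its mean was higher in preNeu than in proNeu2 and lower in TpMo than in cMoP. Ica1 thus differed between stages on both paths, and not on the neutrophil side alone. Slc2a3 was at 13.54 ± 5.14 CPM in proNeu2 and 8.057 ± 3.29 in cMoP (5.54 ± 0.58, adjusted p = 1.71e-07). Mxd1 was at 74.94 ± 8.49 and 30.19 ± 4.61 CPM at the early stage (2.68 ± 0.35). The preNeu libraries were the high group for all of these genes.

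Some large differences were present at both stages. Irf8 was at 5.634 ± 3.25 CPM in proNeu2 and 1524 ± 89.9 CPM in cMoP, and its late difference of -6.06 did not pass the test against the early -8.08 (2.02 ± 0.88, adjusted p = 0.176). Csf1r had -5.54 early and -6.17 late (-0.63 ± 0.64, adjusted p = 0.662), Cebpe 5.7 and 7.29 (1.59 ± 0.63, adjusted p = 0.133), and Vcam1 6.98 and 7.54 (0.56 ± 0.61, adjusted p = 0.695). A p that misses the threshold does not show that these differences were equal, and their SEs are large. Mpo was at 65305 ± 5293 CPM in proNeu2, 9449 ± 3898 in preNeu, 20889 ± 1617 in cMoP and 1283 ± 10.7 in TpMo, lower at the later stage on both paths, and its difference between the paths was 1.24 ± 0.22 larger at the later stage (adjusted p = 0.000319). Lyz2 was at 631.1 ± 200 and 1982 ± 127 CPM at the early stage and was 1.45 ± 0.32 nearer to the neutrophil side at the later (adjusted p = 0.00376), where the groups overlapped.

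**Figure D5:**
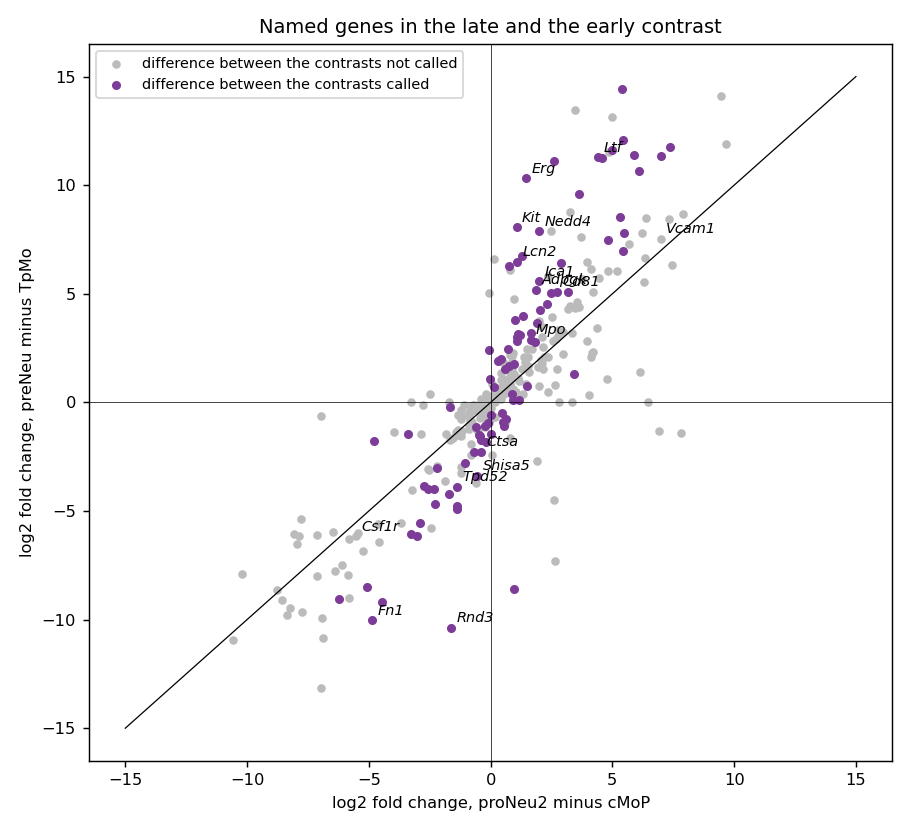
Fitted log2 difference of preNeu minus TpMo (vertical axis) against that of proNeu2 minus cMoP (horizontal axis) for the 310 named genes, with the line of equal values and purple points where the difference between the contrasts was called. Kit, Nedd4, Lcn2 and Erg lie far above the line and Rnd3 far below it, while Csf1r and Vcam1 lie near it.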

How the data were processed

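Total counts per gene, as deposited by the authors, were used for 33 libraries and 54752 features. Per the submitters' processing notes the reads were handled with STAR and featureCounts on GRCm38; versions, strand setting, and the treatment of read pairs and of reads with several positions are not given in the sources used here, so genes with close copies or overlapping neighbours are uncertain. All 33 libraries were fitted together in edgeR 4.0.16 (R 4.3.3) with TMM factors, a filter on low counts by group and the robust quasi-likelihood test, and p-values were adjusted by Benjamini-Hochberg over all 18198 genes tested, with a threshold of 0.05. The 585 X and 9 Y genes were then left out. The biological coefficient of variation was 0.472, with 22 residual degrees of freedom. The libraries compared held 5517734 to 22677438 counts, and whether the biological replicates were separate animals is not given in the sources used here, so p-values measure the spread between these samples. CPM values are scaled by the total count of each library times its TMM factor. These factors were 0.8045 to 0.9265 in preNeu and 0.9735 to 0.982 in TpMo. On simulated data with 200 changed genes of 18198, the test of preNeu against TpMo recovered 55% of 2-fold and 92% of 4-fold changes, with 2% of calls false. The late minus early test recovered 27% and 78%, with 2.78% of calls false. The changed genes were drawn from the more abundant genes, and all groups otherwise had the same means. In the real comparison 28.2% of genes were called, so these rates may not hold for it or for genes with low counts.

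The comparison and the gene lists were chosen with earlier results of these data known. Named genes were the 12 largest differences in each direction at 50 CPM or more without overlap, for each list the 3 largest called rises and falls and the 3 most abundant members, every member of lists of 13 or fewer, a panel of 50 genes, and the 10 lowest p-values of the late minus early difference; the text leaves some out. Alternatives were DESeq2 1.42.0, limma voom 3.58.1, other scaling factors, no low count filter, fewer libraries in the fit, X and Y genes left out first, a fold change of 1.5 and each library left out. Fits without scaling factors were added after seeing the data. Figures were drawn with matplotlib 3.10.9. Some list members are not reported here by name.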

Additional observations from a re-analysis of the deposited data

Results flagged for a closer look

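A direct test asked whether the preNeu minus TpMo difference differed from the proNeu2 minus cMoP difference, which comes from other libraries, and 1424 genes off X and Y passed it. The 10 genes with the lowest p among those at 50 CPM or more in a compared group are given as log2 late minus early differences, each called by edgeR's quasi-likelihood test. Positive values were Kit at 6.99, Nedd4 at 5.89, Lcn2 at 5.39, Ica1 at 3.61, Adpgk at 3.31 and Cd81 at 2.39. Erg was at 8.84, a fitted value that rests on 2 counts in TpMo and is no measure of size. Negative values were Shisa5 at -2.84, Tpd52 at -2.49 and Ctsa at -1.87.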

How the results depend on the processing

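Against a fold change of 1.5 in place of any change, 2899 genes were called, 1375 higher in preNeu and 1524 higher in TpMo, and 519 for the late minus early difference. Leaving out each of the 6 libraries in turn gave 4038 to 5026 calls, 1854 to 2321 of them higher in preNeu and 2126 to 2705 higher in TpMo. The calls of at least 2-fold were then 1309 to 1548 and 1392 to 2030, and those of the late minus early difference 1019 to 1703. Without preNeu replicate 3, Ctsg was at -0.62 and Myc at -0.77, reversed in sign, whereas without preNeu replicate 1 Ctsg was at 0.92 and without preNeu replicate 2 Myc was at 0.32; the cause was not tested. Over all 16 other settings, 185 of 243 called named genes kept their call and direction, and 19 of 67 uncalled ones were called at least once. No paired analysis by animal was possible because the groups differ in sex by Xist and Y genes. The labels also link no preNeu library to a TpMo library, and equal replicate numbers here do not mean a shared animal. Depth limits low genes most in preNeu replicate 3, with 5517734 counts.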
